A study of Mus musculus with 4 samples.

Results

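Jarid2 and Mtf2 encode accessory subunits of Polycomb repressive complex 2 (PRC2), and the H3K27ac peaks listed under their names were examined in Sv129 mouse embryonic stem cells (mESCs). The members were chosen by gene symbol from the peak table, because measured values of these libraries had given both genes listed peaks. All rows carrying either symbol were taken, 11 of the 4088 listed peaks, with 9 for Jarid2 and 2 for Mtf2. Their presence in the table is therefore the basis of the choice and is described here without a test.

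Acetylation of histone H3 at lysine 27 (H3K27ac), a mark of promoters and enhancers in use, was measured by ChIP-seq. Cells of the Sv129 line grown with folate at 4 mg/L (FA4, labelled folate-treated) were compared with cells of the same line grown in folate-deficiency medium at 0 mg/L (FA0). Both groups came from 1 line split between the 2 media, in serum-containing medium with leukemia inhibitory factor, and each had 1 immunoprecipitated (IP) and 1 input library. With 1 library per group, no value has a replicate check.

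Each listed peak is a region where the IP library of one condition exceeded that of the other. The table does not name the control, and the order FA4 over FA0 was inferred from the name the study gives the same promoter peaks. The text of the study points the other way, and with the order reversed every difference given here would be reversed too. The pileup is the number of FA4 fragments stacked at the summit. The FA0 background is the local estimate recovered from the fold, which is pileup plus 1 over background plus 1, and it is not the FA0 pileup at the summit. Its lowest value, 1.60, was also its median over distal intergenic peaks. Many peaks thus share this value, and their fold then depends on the pileup alone. Regions with more H3K27ac in FA0 were not analysed here, and a gene without a listed peak may have H3K27ac, unchanged or higher in FA0. Over the table, pileups ran from 8 to 265 with a median of 12, folds had a median of 3.84, and widths ran from 252 to 2456 bp. Because the table lists only differences between the 2 IP libraries, it cannot show whether the cells were of the labelled type. Of 10 embryonic stem cell markers, 7 had a listed promoter peak (Pou5f1, Nanog, Sox2, Zfp42, Klf2, Dppa5a and Tdgf1), against 4.75% of protein-coding genes. The exact binomial 95% interval of that count was 34.8 to 93.3%. Klf4, Esrrb and Tfcp2l1 had no listed peak. Of 8 feeder fibroblast markers 0 had a listed peak of any class, against 9.28% of protein-coding genes, a count too small to set apart from that share (exact binomial 95% interval 0 to 36.9%).

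PRC2 methylates the same lysine 27 of histone H3 that H3K27ac marks, and a single lysine cannot carry both. It comes in alternative forms built on the same core. JARID2 is a subunit of PRC2.2, a member of the Jumonji family without demethylase activity, and helps bring the complex to chromatin. The mouse gene was first described in a gene trap whose homozygous embryos had neural tube defects. MTF2, also called PCL2, is a subunit of PRC2.1 whose DNA-binding domain recognises unmethylated CpG-rich DNA. Both proteins are prominent in embryonic stem cells, where PRC2 holds developmental genes silent.

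The start regions of the 2 genes are shown because promoter peaks of both lay at or just after them. RefSeq (GRCm38.p6, the assembly of mm10) gives 2 start sites for Jarid2 (gene on chromosome 13, 44730774 to 44921643, plus strand) and 2 for Mtf2 (chromosome 5, 108065660 to 108109219, plus strand). Each window holds 250 bases before the start site and 50 from it on, and capitals mark a GC box, a CCAAT box and, in the second Jarid2 window, a TATA box, with no overlap between them. The GC box was searched as GGGCGG on both strands, so that CCGCCC is the same box on the minus strand. The CCAAT box was searched likewise, with ATTGG as its minus strand form. The TATA box was searched as TATAAA.
Jarid2 first start, chr13:44730524-44730823: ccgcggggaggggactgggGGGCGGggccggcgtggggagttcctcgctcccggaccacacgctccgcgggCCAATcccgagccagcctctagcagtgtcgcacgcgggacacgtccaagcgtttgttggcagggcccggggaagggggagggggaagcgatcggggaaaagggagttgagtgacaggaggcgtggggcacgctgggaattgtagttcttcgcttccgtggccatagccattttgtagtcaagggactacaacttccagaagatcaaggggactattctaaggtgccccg
Jarid2 second start, chr13:44731021-44731320: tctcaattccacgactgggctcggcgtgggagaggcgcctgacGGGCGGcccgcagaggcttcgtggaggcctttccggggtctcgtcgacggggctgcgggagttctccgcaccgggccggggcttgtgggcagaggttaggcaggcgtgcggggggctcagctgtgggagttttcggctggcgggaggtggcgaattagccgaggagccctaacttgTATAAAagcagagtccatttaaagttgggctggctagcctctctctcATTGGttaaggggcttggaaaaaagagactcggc
Mtf2 first start, chr5:108065424-108065723: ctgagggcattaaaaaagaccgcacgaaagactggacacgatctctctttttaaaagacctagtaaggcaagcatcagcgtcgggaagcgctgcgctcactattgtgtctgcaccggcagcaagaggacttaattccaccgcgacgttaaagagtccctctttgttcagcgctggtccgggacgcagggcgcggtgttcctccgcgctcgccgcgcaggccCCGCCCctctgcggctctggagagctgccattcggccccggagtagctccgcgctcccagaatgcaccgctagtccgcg

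The second Jarid2 window lay almost wholly inside a peak, with 292 of its 300 bases in the widest peak of the locus. The first Jarid2 window held no base of a peak and ended 205 bp before the same peak began. The first Mtf2 window likewise held none and ended 36 bp before the first Mtf2 peak. Thus at both genes the promoter peaks lay downstream of the first start site rather than over it, while the distal peaks of Jarid2 lay upstream. These 3 windows were CpG-rich, with 24 and 23 CpG at Jarid2 and 30 at Mtf2, against a median of 7 over 32851 RefSeq promoter windows of the same length. Counts at least as high were found in 20% of those windows for the first Jarid2 start, 21.5% for the second and 11.7% for Mtf2. The remaining Mtf2 start, at 108078165, had 2 CpG in its window and no peak, the nearest Mtf2 peak ending 4603 bp before the window.

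On either strand, a GC box was present in 35.7% of all windows, a CCAAT box in 37.4% and a TATA box in 13.6%. The TATA box of the second Jarid2 start began 31 bases before the start site. A plus-strand TATA box beginning 20 to 40 bases before the start was found in 1.99% of windows, a range that was set after the Jarid2 match was seen. The first Jarid2 start and the first Mtf2 start had no match to TATAAA. A match describes these letters in the window and not a bound factor.

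Jarid2 carried a run of H3K27ac peaks that began far upstream and stopped at the start of the gene. Its 9 peaks spanned 54.6 kb, from 44678764 to 44733412 on chromosome 13 (mm10), and 7 of them were distal intergenic by the authors' annotation. The other 2 were in promoters within 1 kb of a start site. Pileups ran from 38 to 78 with a median of 59, and folds from 1.90 to 2.91 with a median of 2.24. FA0 backgrounds ran from 17.2 to 27.2, so each peak rose over a region where the FA0 library already had fragments.

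**Figure D1:**
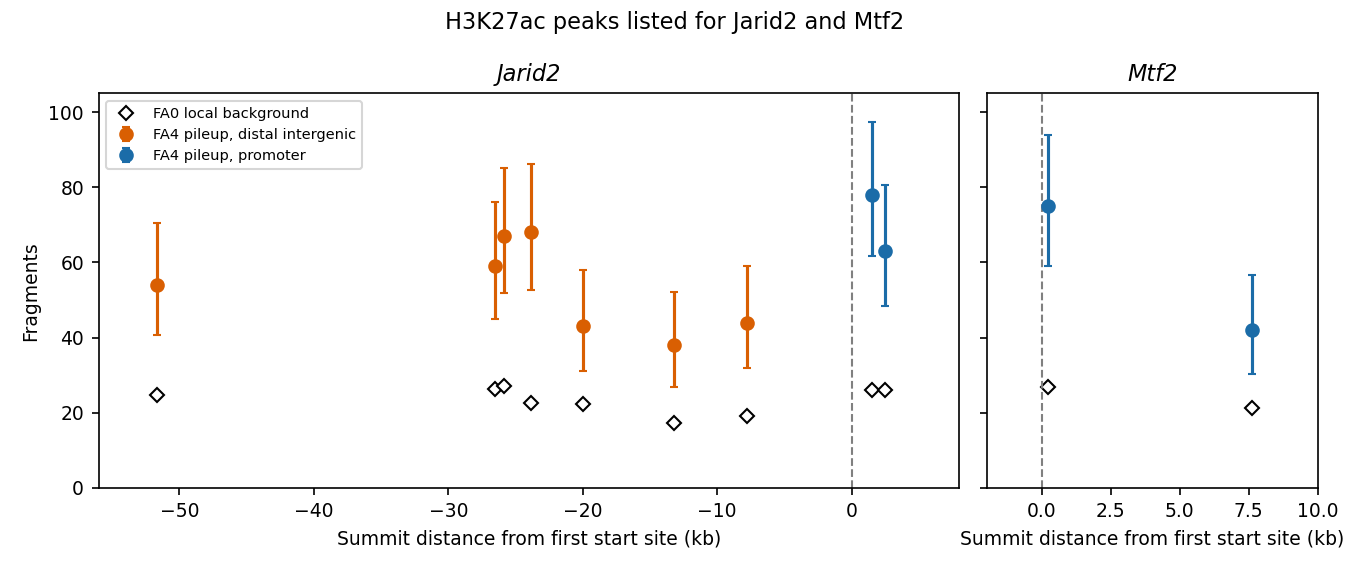
FA4 pileup (filled circles, with Poisson 95% intervals) and FA0 local background (open diamonds), both in fragments, against the distance of each summit from the first RefSeq start site in kb (dashed line), for the 9 Jarid2 and 2 Mtf2 peaks. Jarid2 pileups between 38 and 68 extend upstream to 51.7 kb before the start, and the highest, 78, lies 1.48 kb after it.

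The most distant Jarid2 peak stood alone. It lay at 44678764 to 44679220, with its summit 51.7 kb before the first start site, a pileup of 54 (Poisson 95% interval 40.6 to 70.5, counting error only) over a background of 24.6, and a fold of 2.15. A gap of 24.9 kb separated it from the next peak. The table placed it 50254 bp from its nearest start site, that of a short Jarid2 transcript beginning at 44729474. The nearest RefSeq gene on its other side, the long noncoding RNA gene Gm40931, ended 41755 bp before it. How the table chose the gene is not given beyond the distance to a start site. Which gene any of the 7 distal peaks acts on was not measured.

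The next 3 peaks formed the tallest group upstream of the gene. The peak at 44704105 to 44704446 had a pileup of 59 (44.9 to 76.1) over 26.3 and a fold of 2.2. The peak at 44704729 to 44705183, only 282 bp further on, had 67 (51.9 to 85.1) over 27.2 and a fold of 2.41. The third, at 44706705 to 44707019, had the highest pileup of the distal peaks, 68 (52.8 to 86.2), over a lower background of 22.7. Its fold of 2.91 was therefore the highest among the distal peaks and matched that of the widest promoter peak, although it was the narrowest of the 9 at 315 bp. The 3 pileups lay within each other's counting intervals.

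Closer to the gene, 3 lower peaks followed at intervals of several kb. The peak at 44710586 to 44711022 had a pileup of 43 (31.1 to 57.9) over 22.2. Its fold of 1.90 was the lowest of the locus, with a −log10 q of 1.48. The peak at 44717453 to 44717809 had the lowest pileup, 38 (26.9 to 52.2), over the lowest background, 17.2, and a fold of 2.14. The peak at 44722752 to 44723111 had a pileup of 44 over 19.1 and a fold of 2.24. These 3 peaks had both the lowest pileups and the lowest backgrounds of the locus. The ratio of the highest to the lowest was 2.05 for pileups and 1.58 for backgrounds over the 9 peaks. The weakest of the 3, at −log10 q 1.48, stood close to the lowest value in the table, 1.31.

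The highest pileup among the listed peaks of the locus was at the start of Jarid2. The peak at 44731029 to 44732523 covered the second RefSeq start and had a pileup of 78 (61.7 to 97.3) over 26.1, a fold of 2.91 and a −log10 q of 11.1. At 1495 bp it was 1 of 5 peaks in the whole table at least that wide (0.122%). Its summit lay 1221 bp from its left edge and 1.48 kb after the first start site. The peak at 44732960 to 44733412 followed after 436 bp, with a pileup of 63 (48.4 to 80.6) over 26 and a fold of 2.37. The table annotated it 628 bp before a further transcript start at 44734040, for which the RefSeq promoter table has no window.

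Beyond these 2 peaks the body of Jarid2 was empty in the table. The last peak ended 2.64 kb after the first start site, and no peak under any symbol was listed in the remaining 188 kb of the gene. The next listed peak downstream was 249 kb away, at the promoter of Dtnbp1, a gene of a lysosome-related organelle complex, with a pileup of only 11 over a background of 1.60. On the upstream side the nearest was 258 kb away, in an intron and assigned to the long noncoding RNA gene 1700029N11Rik, also with a pileup of 11 over 1.60. Both had a higher fold (4.61) than any Jarid2 peak, on far fewer fragments and on the lowest background of any listed peak. With that background, a pileup of 11 always gives this fold. The Jarid2 run was thus bounded on both sides by long stretches with no listed peak. Listed peaks were sparse in general. Windows of 54.6 kb that begin at a peak held a median of 1 peak, the first included. How common stretches as long as these are was not computed, so they are not given as particular to Jarid2.

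Mtf2 had only promoter peaks. The first, at 108065760 to 108066185 on chromosome 5, had a pileup of 75 (59.0 to 94.0) over a background of 26.7, a fold of 2.74 and a −log10 q of 9.34. Its summit lay 219 bp after the first RefSeq start site. The second, at 108072735 to 108073311, had a pileup of 42 (30.3 to 56.8) over 21.2, a fold of 1.93 and a −log10 q of 1.58. The counting intervals of these 2 pileups did not overlap, and the first was the higher.

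The second Mtf2 peak lay within the gene rather than at its main start. Its summit was 7.63 kb after the first RefSeq start, and the table called it a promoter peak because it covers the start of a shorter transcript at 108072915. The RefSeq promoter table has no window at that place. The summit stood 3 bp from the right edge of the 577 bp peak, where the first peak had its summit 133 bp from its left edge. No peak was listed in the last 35.9 kb of Mtf2. The nearest listed peaks outside the gene were 165 kb upstream at the promoter of Rpl5, a ribosomal protein gene (pileup 50, fold 2.32), and 1024 kb downstream at Vmn2r12, a vomeronasal receptor gene (pileup 15, fold 4.46).

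Jarid2 and Mtf2 resembled each other in the levels of their strongest peaks and differed in their layout. The strongest peak of each had a similar pileup (78 and 75), background (26.1 and 26.7) and fold (2.91 and 2.74), and the pileups lay within each other's counting intervals. The peaks of lowest fold had folds of 1.90 and 1.93 at pileups of 43 and 42. Their −log10 q values of 1.48 and 1.58 stood close to the lowest listed, 1.31. The cut for listing limits how low a fold can be at such pileups, so this likeness carries no weight. Jarid2 had 7 distal peaks and Mtf2 had none listed, and the peaks of Mtf2 spanned 7.55 kb against 54.6 kb.

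All 11 peaks stood on the tall, low-fold side of the table. Each had a pileup above the table's median of 12 and a fold below its median of 3.84, and each had an FA0 background above the median of 1.96. None reached a fold of 3. Low folds were common among promoter peaks within 1 kb, where the median was 2.85 and the upper quartile 3.74. Folds no higher than those of the strongest Jarid2 and Mtf2 promoter peaks were found in 51.7% and 45.1% of that class. Distal intergenic peaks had a median fold of 3.85. Pileup, background and fold are tied by the ratio, so these are not 3 separate observations. A peak of low pileup also needed a high fold to be listed at all. The median folds of 3.84 and 3.85 therefore partly reflect the listing, and the members are not shown to have changed less than other regions.

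**Figure D2:**
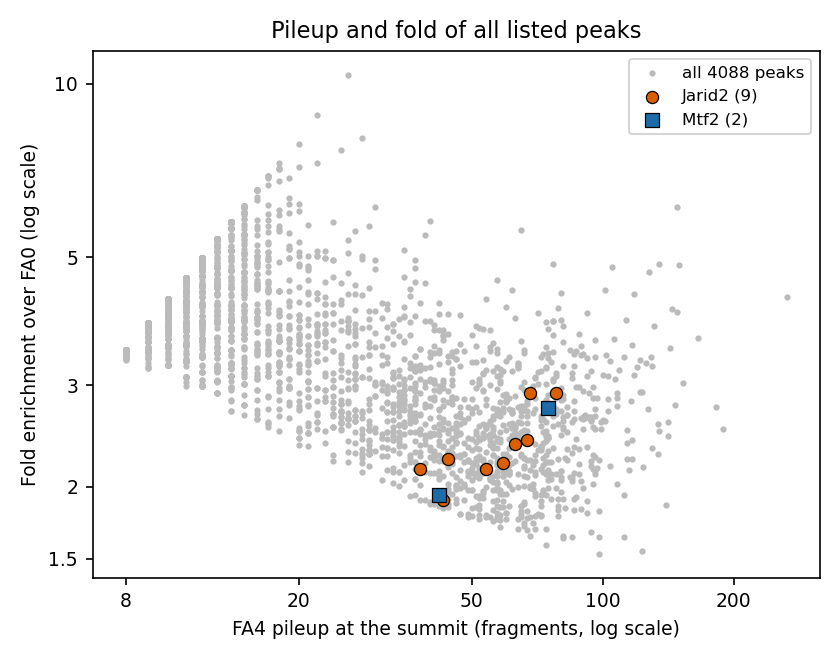
Fold enrichment over FA0 against FA4 pileup at the summit in fragments, both on log scales, for all 4088 listed peaks (grey), the 9 Jarid2 peaks (circles) and the 2 Mtf2 peaks (squares). The 11 members lie at pileups of 38 to 78 and folds of 1.90 to 2.91, while the largest mass of peaks lies at low pileup and high fold.

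Against peaks of the same class, the distal peaks of Jarid2 stood high by pileup, and the promoter peaks less so. The 1160 distal intergenic peaks had a median pileup of 11, upper quartile 14, and a median background of 1.60. The Jarid2 distal peaks ranked from 15 to 67 by pileup in that class, and only 69 distal peaks (5.95%) reached 38, the lowest value of Jarid2. Jarid2 had 7 of the 1160 distal peaks, and all 7 reached this cut by construction, because it was set from them. Of the 69 peaks, which carried 49 gene symbols, 7 were nearest to Jarid2 (10.1%). As many were nearest to Mir290a, of the miR-290 cluster of stem cell microRNAs, with pileups of 62 to 77. No other symbol had more than 3, the symbols with 3 being Klf2, Gm38509 and AC149090.1. The last is on the scaffold JH584304.1 and not on a named chromosome, so the placement of its reads may be uncertain. At promoters within 1 kb, by contrast, the median pileup was 44 over 1065 peaks. The strongest Jarid2 and Mtf2 promoter peaks were among the 15.7% and 17.8% of these with the highest pileup, and the second peak of Mtf2 among the highest 52.4%.

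**Figure D3:**
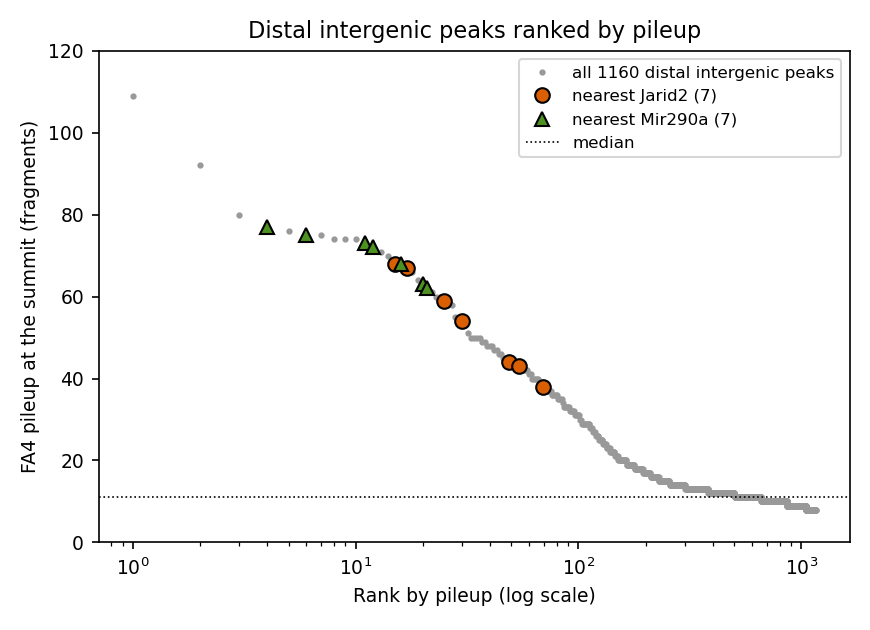
FA4 pileup at the summit in fragments against rank (log scale) for the 1160 distal intergenic peaks, with the 7 nearest Jarid2 (circles) and the 7 nearest Mir290a (triangles). The dotted line is the median of 11, and all Jarid2 points lie between 38 and 68.

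Few genes had as many peaks as Jarid2. Of 3466 gene symbols in the table, 428 (12.3%) had at least 2 peaks, 20 had at least 5 and 3 had 9, namely Jarid2, Ptch1 and Mir290a. By number of peaks and then by distance from first to last, the symbol most like Jarid2 was Ptch1, the hedgehog receptor gene, whose 9 peaks spanned 51.1 kb. Its peaks were of another kind, with 4 in promoters, none distal intergenic and a lower median pileup of 30. Mir290a was like Jarid2 in class, with 7 distal and 2 promoter peaks, with medians of 73 for pileup and 2.22 for fold, but its peaks spanned 17.9 kb. Gm47283 on chromosome Y, the next by number, had 7 peaks in 12.7 kb, none of them distal intergenic, and repeated sequence on that chromosome can make the placement of reads uncertain. Of the 4088 windows of 54.6 kb that begin at a peak, 8 (0.196%) held 9 or more peaks. The length and the count are those of Jarid2, which is 1 of the 8 by construction, and some of the 8 overlap each other.

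For Mtf2, 2 peaks was a common number, found for 323 symbols (9.32%). The symbols nearest to it in distance between peaks were Anapc11, a gene of the anaphase-promoting complex, Tmem92 and D930007P13Rik. Anapc11 also had 2 promoter peaks, and its medians were 26.5 for pileup and 3.93 for fold. Both peaks of Tmem92 and D930007P13Rik had pileups of 11 or less, so these genes shared the spacing with Mtf2 but not the level of 42 to 75.

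Other Polycomb genes were examined from lists covering PRC2, PRC1, which ubiquitinates histone H2A, the deubiquitinase PR-DUB and the H3K27 demethylases. Of 49 genes, 11 had a listed peak (22.4%, exact binomial 95% interval 11.8 to 36.6), where 9.28% of 21900 protein-coding genes did. A promoter peak was listed for 7 of 49 (14.3%, 5.94 to 27.2), where 4.75% of protein-coding genes had one. Because Jarid2 and Mtf2 were chosen for their peaks, the counts without them are 9 of 47 (19.1%, 9.15 to 33.3) and 5 of 47 (10.6%, 3.55 to 23.1). Both intervals without the 2 members include the background share. The lists were drawn up with earlier results of these data known, and no test was made of these counts.

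Among the PRC2 genes, Suz12 was the one core subunit with a listed peak. SUZ12 is the scaffold of the complex, and its gene had 1 promoter peak, with a pileup of 66 over a background of 23.6 and a fold of 2.72, close to the strongest Jarid2 and Mtf2 peaks. It also had 2 distal peaks about 12 kb before its start, annotated at 12546 and 11509 bp, with pileups of 42 and 29 and folds of 2.73 and 2.32. Suz12 thus also had distal peaks before a promoter peak. Of its 2 distal pileups, 42 was in the range of the Jarid2 distal peaks and 29 (19.4 to 41.6) below it. The interval of the latter overlapped that of the lowest Jarid2 distal pileup, 38 (26.9 to 52.2). No peak was listed for the catalytic subunit genes Ezh1 and Ezh2, for Eed, or for the histone chaperone genes Rbbp4 and Rbbp7.

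Of the other accessory subunits, only Phf19 had a listed peak. PHF19 is a relative of MTF2 in PRC2.1, and its peak lay in an exon with a pileup of 10 over a background of 1.60, under the counting interval of each Mtf2 peak. Phf1, Epop, Lcor and Lcorl of PRC2.1 had no listed peak, nor did Aebp2, which pairs with JARID2 in PRC2.2.

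In PRC1 and PR-DUB, 7 genes had a listed peak, and 4 of them had one in a promoter. Pcgf2, which encodes a RING finger partner of the catalytic subunits, reached a pileup of 57 with fold 2.25. Cbx7, whose protein reads H3K27 methylation, had 48 and 2.21. Asxl1, a cofactor of the PR-DUB deubiquitinase, had 57 and 2.40. Usp7, a deubiquitinase found with variant PRC1, had a promoter peak between 2 and 3 kb of a start site with 56 and 2.27, and 2 low peaks of 21 and 16 elsewhere. These 4 promoter peaks, like that of Suz12, fell in the range of the Jarid2 and Mtf2 pileups.

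The remaining 3 PRC1 genes had low peaks outside promoters. Ring1, a catalytic E3 ligase gene, had a distal peak of pileup 11 with fold 4.61, on the lowest background of any listed peak, 1.60. Rybp, of variant PRC1, had a distal peak with 11 and 4.12, annotated 74864 bp from its start. Bcor, of the PCGF1-containing variant, had an intronic peak with 15 and 4.14. No peak was listed for either H3K27 demethylase gene, Kdm6a or Kdm6b.

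**Figure D4:**
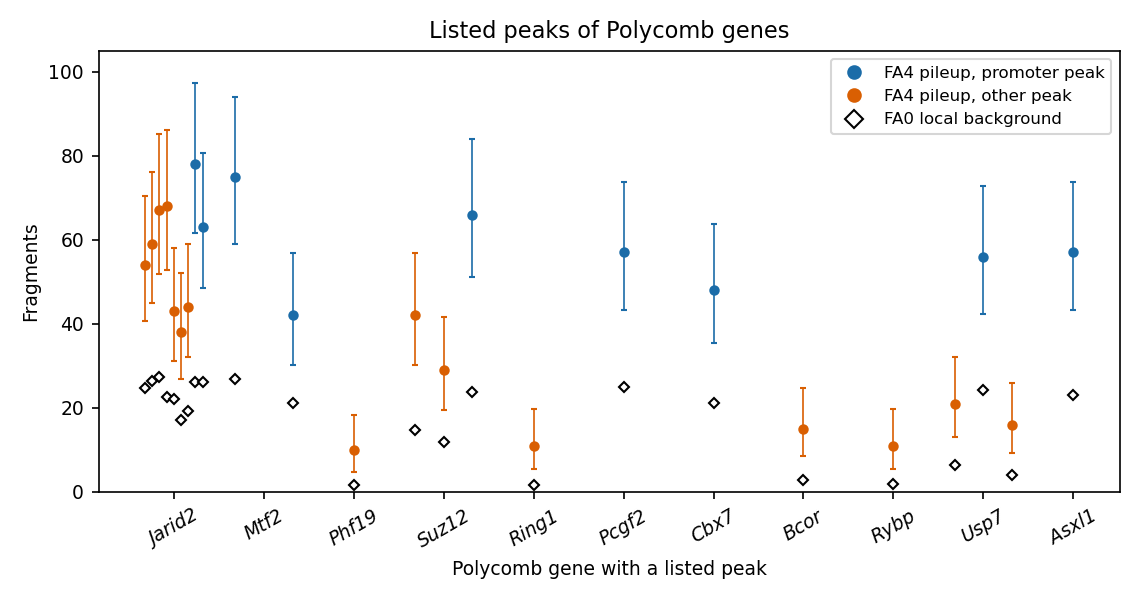
FA4 pileup with Poisson 95% interval (filled circles, promoter peaks in blue and others in orange) and FA0 local background (open diamonds), in fragments, for every listed peak of the 11 Polycomb genes that had one. The 9 promoter peaks lie between 42 and 78, and Jarid2 has the most peaks.

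The 24 Polycomb peaks fell into tall and low ones, a division at an FA0 background of 10 that was chosen after the values were seen. Of these peaks 18, in 7 genes, stood on a background of at least 10, with pileups of 29 to 78 and folds of 1.90 to 2.91, and 11 of the 18 were those of Jarid2 and Mtf2. The other 6, in 5 genes, had pileups of 10 to 21 and folds of 2.96 to 4.61, and none was in a promoter. Among enzymes that set or remove H3K27ac itself, the deacetylase gene Hdac1 had a promoter peak (pileup 67, fold 2.49) and the acetyltransferase gene Crebbp an intronic one (14, fold 5.01), while Ep300, Hdac2 and Hdac3 had none listed.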

How the data were processed

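Chromatin of Sv129 mESCs in FA4 or FA0 medium was digested enzymatically and immunoprecipitated for H3K27ac. Per the submitters' processing notes, the tools were bcl2fastq 2.17, Bowtie 1.1.2 (mm10) and MACS2 2.1.0. Their settings and the means of annotation are not given in the sources used here. Libraries were amplified by PCR and no molecular identifiers are named, and intervals therefore include only counting error.

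The pileup signal was deposited by the authors as whole numbers for each peak. The −log10 of q-values and the fold ratio against the local background were also deposited by the authors. Peak width, position and distance to a start site were deposited in bp. A second deposited table repeats the 1538 promoter peaks at the same coordinates and was used only for that check.

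The background was computed as (pileup plus 1) / fold minus 1. Intervals were exact Poisson (pileups) and Clopper-Pearson (shares), at 95%. Symbols were matched to RefSeq GRCm38.p6 by symbol or synonym, and 2022 of 2044 protein-coding symbols matched. The 49 Polycomb genes all matched. Library totals and input libraries were not analysed here, so depth is seen only in the pileups.

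No test between conditions was possible with 1 library each. The members, gene lists and alternatives were chosen with earlier results of these data known. Named genes were all members, all Polycomb genes with a peak, the 3 symbols nearest to each member in number and spacing of peaks, and the nearest genes with a peak on each side. The gene Klf2, the other symbols with tall distal peaks, and the genes without a peak were named after values were seen. Alternatives were a −log10 q of at least 2 or 3, promoters within 1 kb alone, a minimum fold of 3, assignment by position, merging of peaks under 1 kb apart, and peaks per gene length. The merging and interval steps were tested on simulated data. Computations used scipy 1.17.1, numpy 2.4.6 and pandas 2.3.3 under Python 3.11.15, with plots by matplotlib 3.10.9.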

Additional observations from a re-analysis of the deposited data

How the results depend on the processing

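A minimum fold of 3 left 0 peaks of Jarid2 and 0 of Mtf2, promoter peaks included, and took the Polycomb genes with a peak from 11 to 5 and those with a promoter peak from 7 to 0. When −log10 q had to reach 2 or 3, Mtf2 kept 1 of 2 peaks, its first, and Jarid2 kept 7 and then 6 of 9. Assigned by position in the gene body and the 3 kb before it, Jarid2 had 2 peaks and Mtf2 2, since the 7 distal Jarid2 peaks lie further upstream. By number of peaks Jarid2 ranked 1 (tied) and Mtf2 106 (tied). With −log10 q of at least 3 these ranks were 4 and 160, and per 10 kb of gene length 2687 and 2279, a setting that divides by the 190 kb Jarid2 transcript while most of its peaks lie outside it. Merging peaks under 1 kb apart gave 7 Jarid2 peaks, still rank 1. In all, 28 of 43 values under the alternatives stayed within 1.5 times or the counting interval, including every median pileup and fold computed. No median was computed at a minimum fold of 3, where no peak remained, and the Mtf2 medians at the q cuts rest on 1 peak. Keeping only promoters within 1 kb could not change the Mtf2 values or the Jarid2 promoter count. The counting interval used for a median pileup is that of a single count. No paired analysis was possible because FA4 and FA0 had a single IP library each, so leaving out a replicate was not possible either.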
